A study of Homo sapiens with 6 samples.

Results

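The classical cadherins and catenins were read here as 9 genes of the cell-cell junction: the cadherins CDH1, CDH2, CDH3, CDH4, CDH11 and CDH13, the catenins CTNNA1 and CTNND1, and vinculin (VCL). They were taken by gene symbol from a table of 58825 genes, and each symbol matched 1 gene. The table comes from HK-2 cells, immortalized epithelial cells from the proximal tubule of a human kidney. Paired-end libraries of poly(A) RNA were made from Control cells (3 libraries), labelled as untreated, and from OX-LDL cells (3 libraries) given 25 μg/ml oxidized low-density lipoprotein, for which the labels state 48 h. Both groups are the same line with no introduced allele, and the methods describe serum starvation before OX-LDL was added. The labels name no vehicle and no unoxidized lipoprotein in the Control cells. HK-2 is 1 line, and the labels do not say whether the libraries of a group came from separate cultures, so p-values measure the spread between these libraries, which may be technical. In bulk RNA, fewer cells of a kind and less RNA per cell cannot be told apart. The study asked how lipid exposure leads to fibrotic change in tubular cells, in which a switch between cadherins is commonly examined.

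Classical cadherins are transmembrane proteins whose outer domains bind the same cadherin on a neighbouring cell in the presence of calcium. Their cytoplasmic tails hold p120-catenin, which keeps the cadherin at the surface, and β-catenin or γ-catenin, which in turn bind α-catenin. Under tension α-catenin recruits vinculin, which binds actin filaments. Epithelia of many organs are joined by E-cadherin, whereas the proximal tubule of the human kidney is known for N-cadherin and CDH6. CDH16 is a further cadherin of the kidney and is not particular to the proximal tubule.

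The libraries held between 62561347 and 76797607 counts. A read pair added about 4 counts to a gene, so a gene with at most 12 counts in a library, which is 3 read pairs, was taken as not detected there. Such limits cover counting error only. Levels are given as FPKM (sequenced fragments per kilobase of transcript, with library size scaled out), which allows genes of different length to be compared. The log2 fold change (log2FC) of OX-LDL over Control was estimated with edgeR's quasi-likelihood test, each with its standard error (SE). The counts of 19510 genes were tested, those that averaged 0.1 FPKM or more, and a gene was called at an adjusted p-value under 0.05. The epithelial markers KRT8, KRT18, KRT19 and EPCAM were present, with summed levels of 120 to 145 FPKM in Control and 174 to 224 FPKM in OX-LDL, and KRT8 and KRT19 were called higher. The proximal tubule marker LRP2 had 0 counts in every library. CUBN, AQP1, ANPEP and SLC34A1 were all too low to be tested and summed to at most 0.211 FPKM in any library, so the defining markers of the proximal tubule were nearly absent under the tubular label. DCN had 0 counts in every library, PDGFRB was at most 0.0493 FPKM and COL1A1 was at 0.467 to 0.932 FPKM, with overlapping groups. The leukocyte gene PTPRC had 0 counts in every library except OX-LDL replicate 1, where its 8 counts were under the detection limit. The 3 endothelial markers PECAM1, VWF and CDH5 summed to at most 0.0957 FPKM. CD68, from the leukocyte list, stood at 2.77 to 7.56 FPKM in Control and at 8.91 to 13.6 FPKM in OX-LDL (adjusted p = 0.0858 by edgeR and 0.00617 by DESeq2). The part of these markers in the results below was not tested.

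Of the 9 genes, 7 passed the minimum level, and 2 of the 7 were called by edgeR, both higher in OX-LDL: VCL and CDH2. Among all genes tested, 15.3% were called, with 7.91% higher and 7.42% lower. The median log2FC was 0.17 over the 7 genes and 0.00 over all genes tested. CDH1, CDH3, CDH4, CTNNA1 and CTNND1 were not called by edgeR, and CDH11 and CDH13 were under the minimum. DESeq2 called 3 of the 7, with CDH4 lower beside VCL and CDH2, and it called 26.4% of the 16805 genes to which it gave an adjusted p-value.

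The 9 genes fell into 4 at a high level and 5 at a very low one. Over the 6 libraries, VCL had a mean of 53.8 FPKM, CTNNA1 41.6, CDH2 41.4 and CTNND1 13.2 FPKM. The next was CDH3 with 0.287 FPKM, followed by CDH4 with 0.139, CDH1 with 0.101, CDH11 with 0.0113 and CDH13 with 0.00354 FPKM. The 4 high genes lay above 84.5% to 97.2% of the genes tested, while CDH1 lay above 0.3%. Neighbours in this order were not always distinct. In Control, the ranges of VCL and CTNNA1 overlapped, as did those of CTNNA1 and CDH2. In OX-LDL, the lowest VCL library (58.3 FPKM) was above the highest CTNNA1 library (44.1 FPKM), while CTNNA1 and CDH2 still overlapped. CTNND1 was below CDH2 and above CDH3 in every library. CDH3 and CDH4 overlapped in Control only, and CDH4 and CDH1 in OX-LDL only. CDH11 lay below CDH1 in every library.

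**Figure D1:**
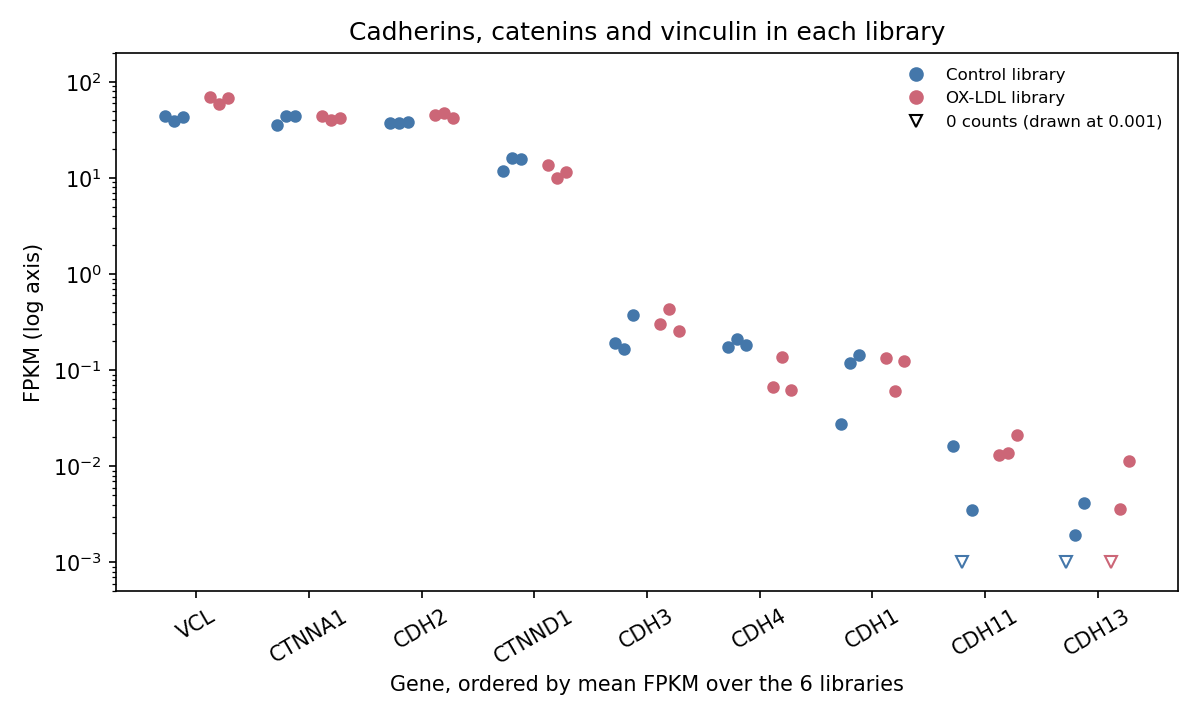
Level in FPKM (log axis) of the 9 genes, ordered by their mean over the 6 libraries. Each point is 1 library (blue, Control; red, OX-LDL), and triangles mark libraries with 0 counts. VCL, CTNNA1, CDH2 and CTNND1 lie above 10 FPKM in every library, and the 5 other cadherins lie below 0.5 FPKM.

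Before the values of VCL and CDH2, the bases before their start sites are shown, because these are the genes of the set that were called. RefSeq promoters on GRCh38.p14 matched 4 of the 9 genes (CDH2, CDH4, CTNNA1 and VCL). The windows cover the 250 bases before the start, 5′ to 3′ on the strand of the gene. Capitals mark the motifs found. They are GGAATG, the core bound by TEAD factors, and the GC box GGGCGG, which reads CCGCCC where it lies on the other strand. The window of VCL is chr10:73997866-73998115, on the plus strand, before a start that lies inside the span of the gene in the authors' table. The window of CDH2 is chr18:28177131-28177380, on the minus strand, directly before the start of the gene in that table. RefSeq holds a further CDH2 start inside the gene, whose window is described but not printed.
VCL: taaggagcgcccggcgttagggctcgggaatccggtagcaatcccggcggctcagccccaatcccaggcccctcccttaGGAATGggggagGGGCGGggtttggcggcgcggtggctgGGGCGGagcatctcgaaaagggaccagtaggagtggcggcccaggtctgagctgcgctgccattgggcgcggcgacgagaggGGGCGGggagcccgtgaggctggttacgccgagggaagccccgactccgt
CDH2: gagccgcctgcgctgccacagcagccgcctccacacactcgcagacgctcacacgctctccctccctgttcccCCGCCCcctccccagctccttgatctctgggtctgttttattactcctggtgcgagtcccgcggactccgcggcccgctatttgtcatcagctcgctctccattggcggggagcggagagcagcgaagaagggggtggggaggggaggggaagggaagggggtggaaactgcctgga
The VCL window held GGAATG once, beginning 171 bases before the start, and GGGCGG 3 times, beginning 159, 132 and 50 bases before it. In the printed CDH2 window GGGCGG was found once, beginning 177 bases before the start. Both strands were searched, also for CACCTG (the E-box bound by repressors of the SNAI family), for TGANTCA (the AP-1 site) and for the CArG box of serum response factor, none of which was in either printed window. The window of the further CDH2 start, at position 28036641 of chromosome 18, held TGANTCA once, beginning 102 bases before that start, and none of the other motifs. The motifs searched do not overlap each other within these windows. Of 35116 RefSeq promoter windows of this length, 42.6% held GGGCGG, 17.5% CACCTG, 11.9% GGAATG, 6.6% TGANTCA and 1.2% the CArG box. The G and C content was 70.4% in VCL and 66.0% in CDH2. Among the windows of these 4 genes, GGAATG was found only in that of VCL, and TGANTCA only in that of the further CDH2 start. GGGCGG was not particular to the called genes. The windows of CTNNA1, which was not called, held GGGCGG 9, 4, 0 and 0 times. Those of CDH4, not called by edgeR, held CACCTG 1 and 0 times. These matches describe letters and were not tested for binding.

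Among the cadherins, CDH2 (N-cadherin; ENSG00000170558, chromosome 18, 27950966 to 28177130 of GRCh38, minus strand) was by far the highest of the 6. Its level was 37.6, 37.6 and 37.9 FPKM in the Control libraries and 44.9, 48.0 and 42.3 FPKM in the OX-LDL libraries. The Control libraries lay within a narrow span, and every OX-LDL library was above them. The means were 37.7 ± 0.188 and 45.1 ± 2.89 FPKM (mean ± SD, n = 3 per group). CDH2 rose by a log2FC of 0.29 (SE 0.07, 95% interval 0.12 to 0.45), which is 1.22-fold, and was called (adjusted p = 0.0367 by edgeR and 0.00939 by DESeq2). This call was lost in edgeR whichever of the 6 libraries was left out (adjusted p = 0.0539 to 0.115), and with no minimum level (adjusted p = 0.0664).

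CDH1 (E-cadherin; ENSG00000039068, chromosome 16, 68737292 to 68835537, plus strand), the cadherin that defines the adherens junction of most epithelia, was close to the limit of the test. It had 0.0276, 0.119 and 0.144 FPKM in Control and 0.134, 0.0602 and 0.124 FPKM in OX-LDL. The counts behind these levels were 15, 66 and 73 in Control and 61, 34 and 71 in OX-LDL, all above the detection limit. The groups overlapped, and the widest spread was within Control. The means were 0.0968 ± 0.0611 and 0.106 ± 0.0400 FPKM (mean ± SD, n = 3 per group). The log2FC was 0.17 (SE 0.63, adjusted p = 0.890 by edgeR), and its 95% interval from -1.32 to 1.66 spans more than 2-fold in either direction, with counts that ranged from 15 to 73 within Control. Without Control replicate 1, the library with the fewest CDH1 counts, it was -0.27.

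CDH2 exceeded CDH1 in every library, by between 264 and 1361 times in FPKM. The ratio was 1361, 315 and 264 in Control and 336, 798 and 340 in OX-LDL, so the groups overlapped. The mean log2 ratio was 8.92 ± 1.30 in Control and 8.81 ± 0.72 in OX-LDL (mean ± SD, n = 3 per group). The difference of -0.10 had a two-sided p-value of 1 in an exact permutation test, where 3 libraries against 3 cannot give less than 0.1. The 15 CDH1 counts of Control replicate 1 set the highest ratio, and without that library the difference was 0.64.

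CDH3 (P-cadherin; ENSG00000062038), a cadherin of basal epithelial layers, lies on chromosome 16 from 68636189 to 68700292 on the plus strand, and its end is 37.0 kb before the start of CDH1. It had 0.192, 0.168 and 0.373 FPKM in Control and 0.302, 0.435 and 0.255 FPKM in OX-LDL. The groups overlapped, with the highest Control library above 2 of the 3 OX-LDL libraries. The log2FC was 0.47 (SE 0.38, 95% interval -0.43 to 1.36, adjusted p = 0.465 by edgeR). An RNA gene on the other strand had up to 17 counts in a library, and whether the counting used the strand is not given in the sources used here.

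CDH4 (R-cadherin; ENSG00000179242, chromosome 20, 61252261 to 61940617, plus strand), first known from the retina, was the tested gene of the set with the largest fold change in size. Its level was 0.176, 0.209 and 0.185 FPKM in Control and 0.0666, 0.137 and 0.0617 FPKM in OX-LDL. Every OX-LDL library was below every Control library, with OX-LDL replicate 2 nearer to Control than the others. The log2FC was -1.06 (95% interval -1.95 to -0.17), and the gene was not called by edgeR (adjusted p = 0.108) but was by DESeq2 (0.0468) and, without OX-LDL replicate 2, also by edgeR (-1.53, adjusted p = 0.0233). At these levels CDH4 made up less of the cadherin RNA than CDH3 in all but 1 library, Control replicate 2.

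CDH11 (OB-cadherin; ENSG00000140937, chromosome 16, 64943753 to 65126112, minus strand), a type II cadherin of mesenchymal cells, had 20, 0 and 4 counts in the Control libraries and 15, 17 and 26 counts in OX-LDL. It was above the detection limit in 1 Control library and in all 3 OX-LDL libraries, and the groups overlapped. CDH13 (T-cadherin; ENSG00000140945, chromosome 16, 82626965 to 83800640, plus strand), which is held in the membrane by a lipid anchor and has no cytoplasmic tail, had 0, 2 and 4 counts in the Control libraries and 0, 4 and 12 counts in OX-LDL. It was not detected in any library. When all genes were tested without a minimum level, the adjusted p-value of edgeR's test was 0.564 for CDH11 and 0.722 for CDH13.

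CDH2 therefore accounted for nearly all cadherin RNA of the 6 genes. Its share of their summed FPKM was 98.9%, 98.7% and 98.2% in Control and 98.9%, 98.7% and 98.9% in OX-LDL. The means were 98.6% ± 0.386 and 98.8% ± 0.124 (mean ± SD, n = 3 per group), and the difference of 0.215 percentage points had a two-sided p-value of 0.7 in an exact permutation test. CDH1 held 0.0727% to 0.372% of this sum in Control and 0.124% to 0.294% in OX-LDL.

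The picture changed when 16 other cadherins were included. Of the 22 cadherins, 4 had a mean above 1 FPKM (CDH2, CDH6, CDH16 and CDH24), and 10 were at or under the detection limit in every library. CDH2 was still the highest in every library, with 54.2%, 58.4% and 58.6% of the summed FPKM in Control and 52.6%, 53.2% and 50.4% in OX-LDL. Every OX-LDL share was below every Control share, with a p-value of 0.1 in the exact permutation test, the lowest it can give. The same p-value holds for the ratios given below whose groups do not overlap. The mean share was 57.1% ± 2.49 in Control and 52.0% ± 1.49 in OX-LDL (mean ± SD, n = 3 per group), although the CDH2 level itself was higher. The summed level of the 22 genes was 69.3, 64.4 and 64.7 FPKM in Control and 85.4, 90.3 and 83.9 FPKM in OX-LDL.

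**Figure D2:**
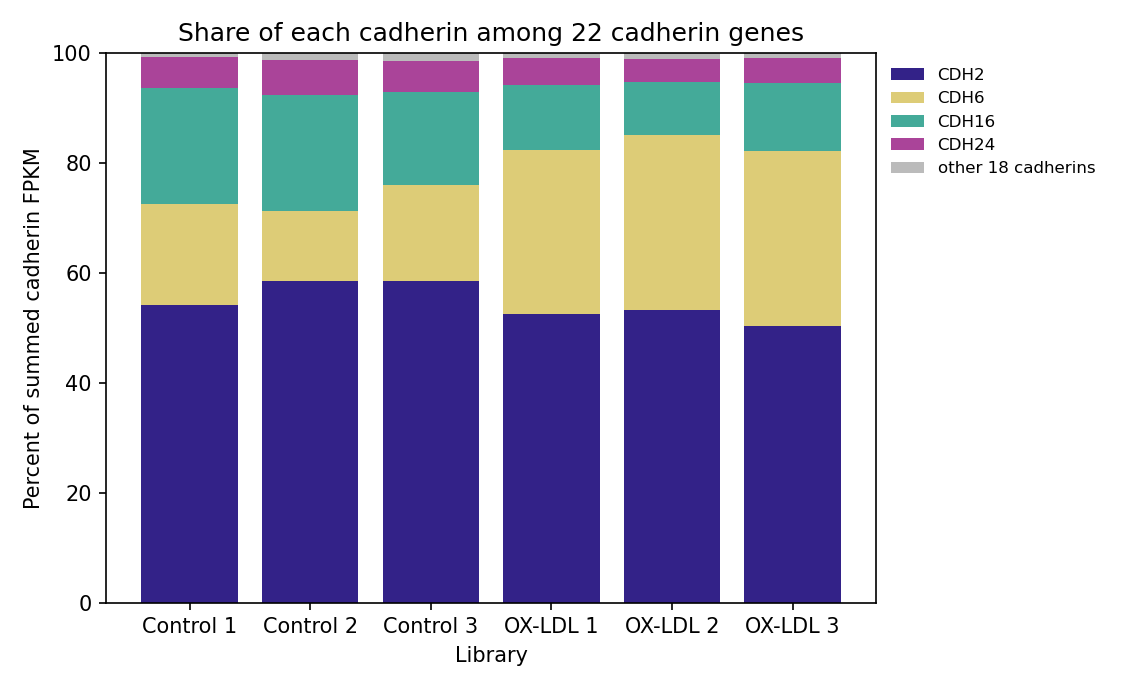
Percent of the summed FPKM of 22 cadherin genes in each library, as stacked bars (CDH2, CDH6, CDH16, CDH24 and the remaining 18 genes). CDH2 takes 50.4% to 58.6% of each bar, and the CDH6 part is 12.9% to 18.3% in Control and 29.8% to 31.9% in OX-LDL.

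CDH6 (K-cadherin), a type II cadherin of the developing and adult proximal tubule, had 12.7, 8.30 and 11.2 FPKM in Control and 25.5, 28.8 and 26.7 FPKM in OX-LDL. The groups did not overlap, and the level rose from 10.7 ± 2.24 to 27.0 ± 1.67 FPKM (mean ± SD, n = 3 per group), a log2FC of 1.36 (SE 0.16, adjusted p = 0.00475 by edgeR). The level of CDH6 relative to CDH2 was 0.337, 0.221 and 0.297 in Control and 0.567, 0.599 and 0.632 in OX-LDL, without overlap. CDH16 (Ksp-cadherin), a kidney-specific cadherin with a short tail that does not bind catenins, had 14.7, 13.6 and 11.0 FPKM in Control and 10.1, 8.67 and 10.4 FPKM in OX-LDL. All OX-LDL libraries were below the Control libraries, with a log2FC of -0.40 (SE 0.13) that was not called by edgeR (adjusted p = 0.0919) and was called by DESeq2 (0.0484). Of the 22 cadherins, CDH16 held 17.0% to 21.2% in Control and 9.61% to 12.4% in OX-LDL. CDH24, named here for its level after its values were seen, had 3.86 ± 0.267 and 3.97 ± 0.178 FPKM. Of the 16 other cadherins 4 could be tested, and CDH6 was the only one of them called by edgeR.

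VCL (vinculin; ENSG00000035403, chromosome 10, 73995193 to 74121363, plus strand) showed the clearest difference of the 9 genes. It had 44.2, 39.1 and 43.5 FPKM in Control and 69.6, 58.3 and 67.9 FPKM in OX-LDL. The groups were well apart, the lowest OX-LDL library being above the highest Control library by more than the whole Control range. The level rose from 42.3 ± 2.73 to 65.3 ± 6.06 FPKM (mean ± SD, n = 3 per group), a log2FC of 0.66 (SE 0.09, 95% interval 0.44 to 0.88) or 1.58-fold (adjusted p = 0.00749 by edgeR). VCL was called under all 15 alternatives, with a log2 fold change between 0.60 and 0.73 and an adjusted p-value of at most 0.0333. It overlaps AP3M1 on the other strand, which had 25.1% as many counts and a log2FC of 0.09 (adjusted p = 0.402 by edgeR). Vinculin is also a protein of focal adhesions, and its RNA does not show at which of the 2 sites the protein lies.

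CTNNA1 (αE-catenin; ENSG00000044115, chromosome 5, 138610967 to 138935034, plus strand), which binds vinculin, had 35.8, 44.0 and 43.9 FPKM in Control and 44.1, 40.2 and 41.7 FPKM in OX-LDL. The groups overlapped, and the lowest value was that of Control replicate 1. The means were 41.2 ± 4.69 and 42.0 ± 1.93 FPKM (mean ± SD, n = 3 per group), and the log2FC was 0.06 (SE 0.09, adjusted p = 0.711 by edgeR). The 95% interval of -0.15 to 0.27 bounds the difference for CTNNA1 more tightly than for any of the low cadherins. Relative to CTNNA1, VCL was at 1.23, 0.889 and 0.991 in Control and at 1.58, 1.45 and 1.63 in OX-LDL, without overlap.

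CTNND1 (p120-catenin; ENSG00000198561, chromosome 11, 57753243 to 57819546, plus strand) had 11.9, 16.3 and 15.7 FPKM in Control and 13.5, 10.1 and 11.5 FPKM in OX-LDL. Control replicate 1 lay within the OX-LDL range, so the groups overlapped. The means were 14.6 ± 2.38 and 11.7 ± 1.71 FPKM (mean ± SD, n = 3 per group), with a log2FC of -0.29 (SE 0.15, 95% interval -0.63 to 0.06, adjusted p = 0.238 by edgeR). The level of CTNND1 relative to CDH2, whose tail it binds, was 0.317, 0.433 and 0.413 in Control and 0.301, 0.211 and 0.272 in OX-LDL, with every OX-LDL library below every Control library. The ratio of CTNNA1 to CDH2 was 0.953, 1.17 and 1.16 in Control and 0.981, 0.838 and 0.987 in OX-LDL, and here the groups overlapped. The read-through gene TMX2-CTNND1, looked at because it shares exons with CTNND1, had at most 4 counts in a library.

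CTNNB1 (β-catenin), the partner that joins the cadherin tail to α-catenin and also acts in Wnt signalling, had 15.7, 15.4 and 14.9 FPKM in Control and 22.3, 22.3 and 22.7 FPKM in OX-LDL. Both groups were tight and far apart, and CTNNB1 rose by a log2FC of 0.58 (SE 0.06, adjusted p = 0.00295 by edgeR). Its ratio to CDH2 was 0.419, 0.409 and 0.392 in Control and 0.497, 0.464 and 0.538 in OX-LDL. JUP (γ-catenin), which can take the place of β-catenin and is a protein of desmosomes, had 5.36, 4.52 and 3.75 FPKM in Control and 6.36, 5.14 and 5.63 FPKM in OX-LDL. The JUP groups overlapped, and the log2FC was 0.36 (SE 0.15, adjusted p = 0.171 by edgeR). Of the 4 catenins described, CTNNB1 was called higher and CTNNA1, CTNND1 and JUP were not called. Whether their fold changes differ from each other was not tested.

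**Figure D3:**
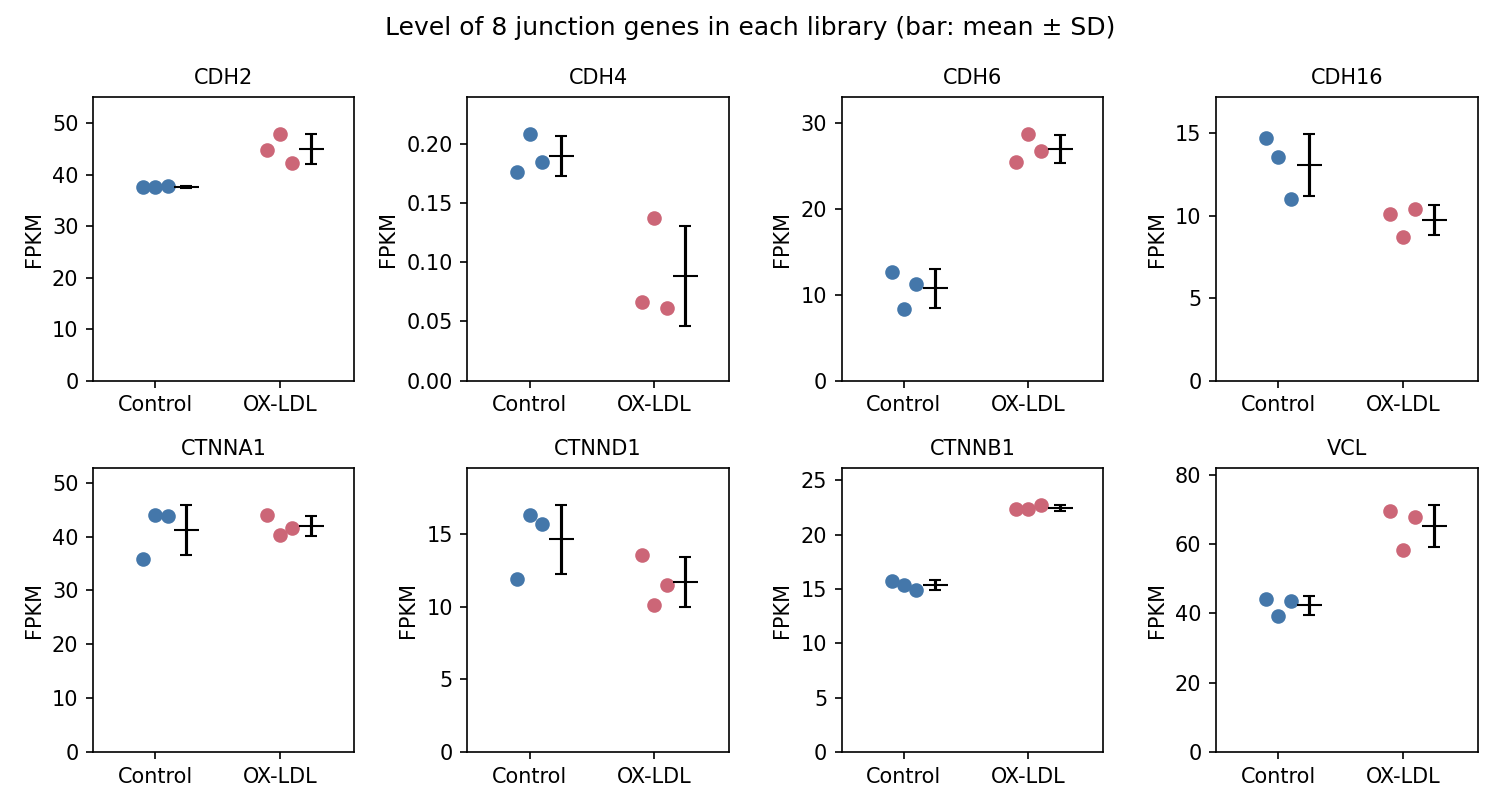
Level in FPKM, on a linear axis from 0, of 8 junction genes in each Control (blue) and OX-LDL (red) library, with the mean and SD of each group drawn beside the points. The groups do not overlap for CDH2, CDH4, CDH6, CDH16, CTNNB1 and VCL, and they overlap for CTNNA1 and CTNND1. Of the genes without overlap, CDH4 and CDH16 were not called by edgeR. The share of all genes tested without overlap is not given here, so a lack of overlap alone does not show a change.

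The wider junction was described with 51 genes in 6 lists, of which 34 could be tested. By edgeR 4 were called higher and 2 lower, against 7.91% and 7.42% of all genes tested, and the median log2FC was 0.10. DESeq2 called 12 of the 34, 7 higher and 5 lower, beside 26.4% of all genes with an adjusted p-value from DESeq2. The calls named next are those of edgeR. Besides CDH6, 1 of 5 tested genes was called among the other catenins, namely CTNNB1. Among the nectins, which start cell contacts, and afadin, which links them to actin, 1 of 4 was called: AFDN (afadin) fell from 14.5 ± 0.358 to 11.2 ± 0.924 FPKM (mean ± SD, n = 3 per group), a log2FC of -0.34 (SE 0.08, adjusted p = 0.0341 by edgeR). That call held in 1 of the 6 fits that left out a library, the one without OX-LDL replicate 3, and in the others the adjusted p-value was 0.0571 to 0.107. Of 10 actin linkers 1 was called, as AJUBA, a LIM protein that binds α-catenin, fell from 37.4 ± 1.98 to a mean of 25.2 ± 0.683 FPKM (log2FC -0.54, SE 0.07, adjusted p = 0.00601 by edgeR).

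Of 6 genes for the turnover of cadherins at the surface, 2 were called by edgeR, both higher. Of all genes tested, 7.91% were called higher by edgeR, and this list was not tested as a whole. CBLL1, the ubiquitin ligase Hakai that acts on E-cadherin, rose from 1.62 ± 0.148 to 3.22 ± 0.698 FPKM (mean ± SD, n = 3 per group), a log2FC of 1.02 (SE 0.18, adjusted p = 0.0137 by edgeR). Without Control replicate 2 its adjusted p-value was 0.0585. RAB11A, a GTPase of recycling endosomes, rose by a log2FC of 0.49 (SE 0.08, adjusted p = 0.0105 by edgeR). CDH6, CTNNB1, AJUBA and RAB11A kept their calls when each library was left out in turn. None of the 5 tested repressors of CDH1 transcription was called by edgeR. DESeq2, which called 26.4% of all genes with an adjusted p-value, called 2 of them. These were SNAI1, higher (adjusted p = 0.0129 by DESeq2), and SNAI2, lower (0.0180), both named after their values were seen. The list had a median log2 fold change of -0.26 by edgeR, with members on both sides of 0.

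**Figure D4:**
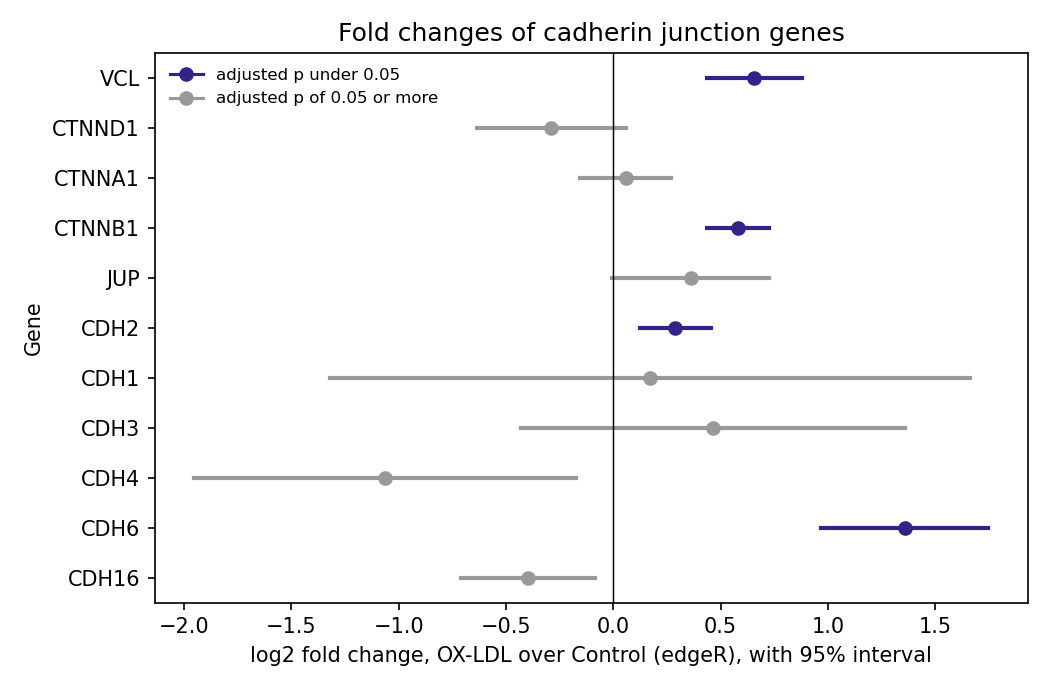
Log2 fold change, OX-LDL over Control, from edgeR with its 95% interval for 11 cadherins, catenins and vinculin (purple, adjusted p under 0.05; grey, not called). The interval of CDH1 runs from -1.32 to 1.66, while those of CDH2, CDH6, CTNNB1 and VCL lie above 0. The intervals of CDH4 and CDH16 lie below 0, although neither gene was called after adjustment.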

How the data were processed

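The authors deposited 1 table with, for each gene and library, an estimated count, not scaled for library size, and an FPKM value. The submitters' processing notes name cutadapt 1.9, HISAT2 2.0.4, StringTie 1.3.4d, edgeR, DESeq2 and GRCh38. The deposited counts are whole numbers and were used as they stand. An excess of genes with 4, 8 or 12 counts was read as about 4 counts per read pair, which gives 15640337 to 19199402 pairs per library. Coordinates were the same in GENCODE 29 for 81.2% of the genes in both.

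The 9 genes and all lists were chosen with earlier results of these data known, so no list was tested as a whole. Libraries were grouped by the labels. Genes that averaged 0.1 FPKM or more were tested with edgeR 4.0.16 (R 4.3.3), using TMM factors, glmQLFit and glmQLFTest with the group as the only term, and Benjamini-Hochberg adjustment over all genes tested. Standard errors were obtained from the fold change and the F statistic of the test. Shares and ratios were computed from the deposited FPKM values. All 9 genes were named, with the called genes of each junction list (up to 4 by p-value) and JUP, CTNNB1, CDH6 and CDH16. GGT1, of the proximal tubule markers, had no unique match. The alternatives were DESeq2 1.42.0, limma 3.58.1 on log2(FPKM + 0.1) and log2(FPKM + 1), other scalings, no minimum level or one of 1 FPKM, read-through counts added, a replicate block and leaving out each library. The edgeR, DESeq2 and limma fits were run on simulated data as a check of the code. Large changes were set there in genes with many counts. Genes with few counts and changes as small as that of CDH2 were not covered. Libraries of a group differed by more than sampling noise.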

Additional observations from a re-analysis of the deposited data

How the results depend on the processing

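Over all genes, 2991 were called by edgeR, 4430 by DESeq2, 1636 with a replicate block and between 1161 and 2943 with 1 library left out. Of the 9 genes, the 2 calls became 3 in DESeq2 (CDH4 added), 1 with no minimum level and 1 with the replicate block. CDH2 was the call lost with no minimum level (adjusted p = 0.0664 by edgeR) and with the replicate block (0.0960). With a library left out the calls lay between 1 and 2, and CDH2 was lost each time. The fit with 2 calls, without OX-LDL replicate 2, called VCL and CDH4. The 6 calls among the 51 junction genes became 12 in DESeq2 and lay between 4 and 8 with a library left out. The cause was not tested in these cases. The correlations of same-numbered libraries, after the group means were taken out, were -0.041, -0.0028 and 0.036. Those of libraries with different numbers ran from -0.054 to 0.056. No shared effect of the replicate number was seen, but these values cannot tell whether same-numbered libraries were handled together.

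The difference in CDH2 share of the 6 cadherins lay between 0.00158 and 0.378 percentage points with a library left out. With the other cadherins in the sum it was -5.03 percentage points. In that larger sum the share of CDH6 differed by 15.0 percentage points and that of CDH16 by -8.48. What set the CDH2 difference was not tested. The difference in the log2 ratio of CDH2 to CDH1 was 0.24 with a pseudocount of 1 FPKM, -0.10 with the replicate block and between -0.54 and 0.64 with a library left out (0.64 when Control replicate 1 was left out, 0.11 for OX-LDL replicate 1 and 0.10 for OX-LDL replicate 3). None of these differences could pass a threshold of 0.05 in the exact test. With a library left out, the log2 fold change of CDH1 lay between -0.27 (Control replicate 1) and 0.58 and was -0.01 for OX-LDL replicate 1, and that of CTNNA1 lay between -0.024 (Control replicate 1) and 0.11, none of them called. VCL, CDH3 and CTNND1 kept their direction and their side of the threshold under every alternative run. CDH1, CDH3, CDH4, CDH11 and CDH13 rest on few counts, and a minimum of 1 FPKM removed the 3 tested among them.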

Other observations

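The repressors of CDH1 transcription are named here after their values were seen. SNAI1 had 1.75, 2.41 and 3.01 FPKM in Control and 3.82, 3.84 and 3.69 FPKM in OX-LDL. Every OX-LDL library was above every Control library, with a fitted log2 fold change of 0.70 (adjusted p = 0.0736 by edgeR and 0.0129 by DESeq2). SNAI2 had 0.924, 0.960 and 1.17 FPKM in Control and 0.657, 0.575 and 0.688 FPKM in OX-LDL. Here every OX-LDL library was below every Control library, with a fitted log2 fold change of -0.64 (adjusted p = 0.0709 by edgeR and 0.0180 by DESeq2). TWIST2 had 0 counts in every library.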
